A study of Mus musculus with 5 samples.

Results

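The 2′-5′ oligoadenylate synthetase (OAS) family of the mouse was examined in N2A cells after knockdown of Upf1. Its members were taken by gene symbol from the table of read counts. They were Oas1a, Oas1b, Oas1c, Oas1g, Oas2, Oas3, Oasl1 and Oasl2, which are 8 of the 55573 genes in the table. Each symbol had 1 row. The rule used no measured value, but the family was chosen with earlier results of these data known.

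OAS enzymes bind double-stranded RNA, a sign of viral infection, and then join ATP into short 2′-5′-linked oligoadenylates (2-5A). 2-5A then acts as a second messenger of the antiviral response. Interferon raises the transcription of most OAS genes through interferon-stimulated response elements (ISREs). The OAS-like proteins carry ubiquitin-like domains, and mouse OASL1 is known for repressing translation of Irf7 mRNA, whereas mouse OASL2 retains synthetase activity.

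The study used Upf1 knockdown to find transcripts whose level depends on UPF1, an RNA helicase required for nonsense-mediated mRNA decay (NMD). The mouse neuroblastoma line Neuro-2A (N2A) received 60 pmol of either a commercial negative control siRNA (siCtl) or 1 siRNA against Upf1 (siUpf1). There were 2 siCtl libraries, numbered 1 and 3, and 3 siUpf1 libraries, numbered 1 to 3, all of polyadenylated RNA from unsorted cells. Both arms were transfected, and no untransfected cells, no second Upf1 siRNA and no interferon or virus treatment were analysed here. The labels do not say that libraries came from separate cultures, so p-values measure the spread between these libraries, which may be technical.

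Libraries held between 20402205 and 27717594 reads assigned to genes. Normalised counts are reads divided by each library's DESeq2 size factor, fold changes are log2 of siUpf1 over siCtl, and calls are those whose adjusted p is under 0.05. Upf1 itself had 5217 and 5243 normalised reads in siCtl and 2403, 2496 and 2449 in siUpf1, or 46.8% of siCtl (DESeq2 log2 fold change -1.10, SE 0.0507, adjusted p = 7.09e-101). Across all genes 15191 were tested, of which 3481 were lower and 3341 higher in siUpf1. Of 10 neuronal and neuroblastoma markers 8 had enough reads to be tested, with Nefm and Nefl at 0 to 4 reads per library. Their summed level was 38239 to 38487 normalised reads in siCtl and 42568 to 45299 in siUpf1, with 5 markers higher and 1 lower. Of 12 markers of immune, glial, endothelial and fibroblast cells 7 were tested. The summed level was 725 to 760 in siCtl and 712 to 749 in siUpf1, but single markers went either way. Pecam1 was called lower, at 58.3% of siCtl, and Col1a1 was at 77.8% and not called. Mbp, the largest part of the sum, had 373 and 410 normalised reads in siCtl and 454, 484 and 439 in siUpf1. Dcn had 25.2 and 20.8 in siCtl and 40, 38.9 and 38.3 in siUpf1, and neither Mbp nor Dcn was called. The leukocyte and microglial markers Ptprc, Aif1 and Itgam were at 0 to 5 reads in every library, whereas the macrophage marker Cd68 had 34 and 35 reads in siCtl and 38, 26 and 33 in siUpf1 and was not called. The part of these marker differences in the OAS values was not tested. In bulk RNA, fewer cells that express a gene and less RNA of it per cell cannot be told apart.

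All members lie on chromosome 5 of GRCm38, in 2 loci. Oasl2 (114896936 to 114912234) and Oasl1 (114923240 to 114937915) follow each other on the plus strand within 41 kb. The other 6 are in a cluster of 191 kb that also holds Oas1d, Oas1e, Oas1f and Oas1h. In this cluster Oas2 (120730333 to 120749853), Oas3 (120753098 to 120777661), Oas1c (120800194 to 120812514), Oas1g (120876142 to 120887613) and Oas1a (120896256 to 120907521) are on the minus strand. Oas1b (120812635 to 120824163) is on the plus strand, with 120 bases between its start and that of Oas1c. The annotation lists Oas1b as a polymorphic pseudogene, and mouse strains are known to carry either a full-length or a truncated allele.

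RefSeq promoter windows on the same build, from 250 bases before to 50 after the gene start, were found for 6 members and not for Oas1b and Oas2. They were searched on both strands for a core of the ISRE, GAAA followed by any 2 bases and GAAA again. The core was found in 4 of the 6, those of Oas1a, Oas1c, Oas1g and Oas3, against 3.44% of all 32851 windows. In these searches a listed gene was counted if any of its windows matched, whereas the background counts each window. The 120 bases before each start are shown 5′ to 3′ on the gene's strand, with matches to the core in capitals, so that the members with and without it can be compared.
Oas1a, chr5:120907526-120907645, minus strand: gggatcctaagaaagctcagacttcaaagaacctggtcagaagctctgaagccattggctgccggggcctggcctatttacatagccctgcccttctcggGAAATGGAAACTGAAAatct
Oas1g, chr5:120887614-120887733, minus strand: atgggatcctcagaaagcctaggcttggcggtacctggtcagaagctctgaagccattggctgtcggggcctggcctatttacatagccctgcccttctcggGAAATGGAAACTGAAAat
Oas1c, chr5:120812515-120812634, minus strand: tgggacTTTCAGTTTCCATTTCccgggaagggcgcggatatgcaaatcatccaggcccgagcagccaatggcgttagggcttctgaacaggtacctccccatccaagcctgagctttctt
Oas3, chr5:120777660-120777779, minus strand: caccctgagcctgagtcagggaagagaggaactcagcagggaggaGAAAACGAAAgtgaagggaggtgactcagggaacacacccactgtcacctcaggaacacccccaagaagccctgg
Oasl1, chr5:114923120-114923239, plus strand: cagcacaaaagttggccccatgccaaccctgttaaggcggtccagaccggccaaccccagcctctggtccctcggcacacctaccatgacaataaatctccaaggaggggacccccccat
Oasl2, chr5:114896814-114896933, plus strand: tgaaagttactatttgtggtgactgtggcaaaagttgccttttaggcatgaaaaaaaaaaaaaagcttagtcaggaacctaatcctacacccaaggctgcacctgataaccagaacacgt

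Oas1a and Oas1g shared the same run of 16 bases, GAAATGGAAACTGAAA, which holds 2 overlapping cores. It lay 5 to 20 bases before the start of Oas1a and 3 to 18 before that of Oas1g. The window of Oas1c held the reverse complement of this run, 99 to 114 bases before its own start. Because Oas1c and Oas1b face away from each other, the run reads forward for Oas1b. Between its end and the annotated start of Oas1b lie 6 bases. Oas3 had 1 core, 66 to 75 bases before its start. Neither Oasl1 nor Oasl2 had these letters in its window. A search for a core of the gamma-activated site, TTC and GAA with any 3 bases between them, found it in 1 of the 6 members, Oas1a, and in 8.3% of all windows. A match describes the letters and does not show that a factor binds there.

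In siUpf1 the OAS family was lower as a group. Of the 8 members, all of which had enough reads to be tested, 7 were called lower and 0 higher, with background rates of 22.9% of tested genes called lower and 22.0% called higher. In each of the 8 genes, every siUpf1 library lay below both siCtl libraries, which held for 35.2% of tested genes. Their median log2 fold change was -1.12, against 0.00 over all tested genes. Oasl1 and Oasl2, the most read members, fell to 39.3% and 41.2% of siCtl. Oas1a, Oas1b and Oas1c fell to between 50.7% and 51.9%, and Oas3 to a few reads.

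**Figure D1:**
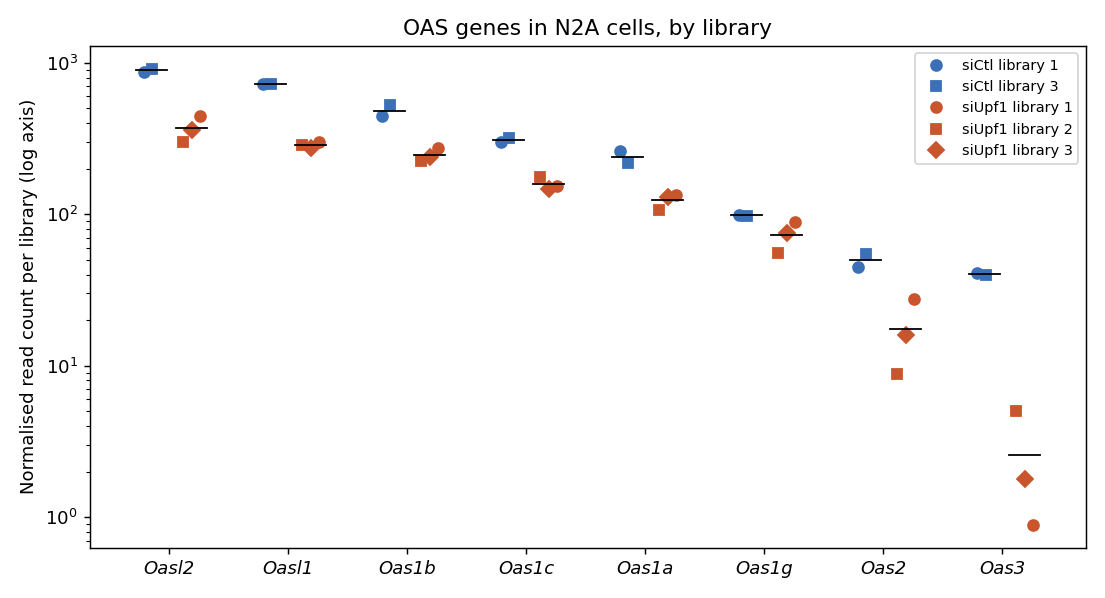
Normalised read counts of the 8 OAS genes (y axis, log scale) in each of the 2 siCtl (blue) and 3 siUpf1 (red) libraries, with a black line at each group's mean. The groups do not overlap in any gene, the gap is narrowest for Oas1g, and Oas3 falls from 39.6 or more to between 0.889 and 5.02 normalised reads.

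Summed over the 8 genes, normalised counts were 2791 and 2899 in siCtl and 1429, 1161 and 1242 in siUpf1. The siUpf1 mean was 44.9% of the siCtl mean (1277 ± 138, SD, n = 3, against 2845 ± 76.2, n = 2), a difference much wider than the spread within either group. No p is given for this sum, since an exact permutation test of 2 against 3 libraries cannot go below 0.1. As a share of assigned reads, the family took 110 and 116 of every 1000000 reads in siCtl and 58.8, 45.3 and 50.3 in siUpf1. Knockdown libraries were not alike in this. Library siUpf1 1 had the highest siUpf1 count for 6 of the 8 members, whereas it was highest for 32.9% of all genes called lower.

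The OAS1 proteins are the small synthetases, with a single catalytic unit. Oas1a encodes an active synthetase. Its normalised counts were 261 and 217 in siCtl and 135, 107 and 130 in siUpf1. Every siUpf1 library was below the lower siCtl library, and the mean was 51.9% of siCtl (log2 fold change -0.94, SE 0.189, DESeq2 adjusted p = 3.88e-06).

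Oas1b is known as the flavivirus resistance gene of the mouse, and most laboratory strains carry the truncated allele. It gave 443 and 526 normalised counts in siCtl and 275, 225 and 238 in siUpf1. Its groups were well apart, with a mean of 50.7% of siCtl (log2 fold change -0.98, SE 0.141, DESeq2 adjusted p = 3.62e-11). Among its annotated transcripts is one of 753 coding bases whose stop lies 270 bases before the last exon junction, with 2 junctions more than 50 bases after it. A stop so placed is the textbook feature of an NMD substrate. A transcript with 1128 coding bases has its stop in the last exon. Counts per gene do not separate these transcripts, and the allele in N2A cells was not analysed here.

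Oas1c, which starts beside Oas1b on the opposite strand, had 299 and 319 normalised counts in siCtl and 153, 176 and 146 in siUpf1. The mean was 51.3% of siCtl (log2 fold change -0.97, SE 0.163, DESeq2 adjusted p = 1.73e-08). As a divergent pair, Oas1b and Oas1c had log2 fold changes within 1 SE of each other.

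Oas1g, which also encodes an active synthetase, was the member with the smallest difference. Its normalised counts were 98.5 and 98.1 in siCtl and 88.9, 55.2 and 75.8 in siUpf1. All 3 siUpf1 libraries were lower, but library siUpf1 1 came close to siCtl, and the gene was not called (log2 fold change -0.41, SE 0.269, DESeq2 adjusted p = 0.217). It was called by no alternative test or scaling, the nearest being edgeR's quasi-likelihood test with an adjusted p of 0.0683. Relative to the other 7 members together, Oas1g was higher in siUpf1. Its log2 ratio to their sum was -4.77 and -4.83 in siCtl and -3.91, -4.31 and -3.93 in siUpf1, with no overlap. The difference of the group means was 0.75. The same ratio also had no overlap for Oas3 (difference -2.83), Oasl1 (-0.24), Oasl2 (-0.19) and Oas1b (0.22). Each ratio is taken against the other members, so these results are not independent of each other. No rate of such separation over all genes was computed for this ratio, and the differences were not tested. Oas1g and Oas1a are close paralogs that share long stretches of sequence, so reads that match both may have been lost or assigned to either, and both counts are uncertain. An NMD transcript is annotated for Oas1g beside the coding one.

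Oas2 and Oas3 are the larger synthetases, built from repeated OAS units, and were the least read members. Oas2 gave 45.1 and 54.7 normalised counts in siCtl and 27.6, 8.79 and 16 in siUpf1. The siUpf1 libraries differed widely among themselves, but all were below siCtl (log2 fold change -1.48, SE 0.466, DESeq2 adjusted p = 0.00430, and -0.67 when shrunken). Its reads summed to 101 in siCtl and 56 in siUpf1. After scaling, this is 36.7% of siCtl, with a 95% exact Clopper-Pearson interval of 26.0% to 51.4% that covers counting error only.

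Oas3, the largest synthetase, had the largest unshrunken log2 fold change of the family, a rank it lost to Oasl1 and Oasl2 when fold changes were shrunken (-1.14, against -1.25 and -1.16). It had 39 and 42 reads in siCtl and 1, 4 and 2 in siUpf1. Normalised counts were 40.9 and 39.6 against 0.889, 5.02 and 1.78, so that few reads remained in every knockdown library. The log2 fold change was -4.09 (SE 0.743, DESeq2 adjusted p = 2.25e-07), and was -4.91 without siUpf1 library 2, which held most of the remaining reads. From the summed reads, 7 against 81, the siUpf1 level was 5.72% of siCtl (95% exact Clopper-Pearson interval 2.23% to 12.3%, counting error only). That interval lies below the intervals of the other 7 members, the nearest of which is that of Oas2. The log2 ratio of Oas3 to the other members together was -6.05 and -6.16 in siCtl and -10.01, -7.71 and -9.09 in siUpf1. Its groups did not overlap either.

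For both genes the calls rest on 2 siCtl libraries. When siCtl library 1 was left out, Oas3 received no adjusted p and Oas2 had 0.0484. Without siCtl library 3, neither Oas2 nor Oas3 received one, because DESeq2 filtered them for low counts. Their log2 fold changes were then -1.63 and -4.05, and -1.35 and -4.09, and the 1 siCtl library left is assumed to vary like the others.

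The OAS-like genes had the most reads and the most precise estimates. Oasl1 gave 729 normalised counts in both siCtl libraries and 302, 285 and 273 in siUpf1. These groups were far apart in relation to their spread, at 39.3% of siCtl (log2 fold change -1.35, SE 0.114, DESeq2 adjusted p = 1.19e-30). Oasl2 gave 875 and 915 in siCtl and 446, 300 and 361 in siUpf1, at 41.2% (log2 fold change -1.27, SE 0.129, DESeq2 adjusted p = 1.58e-21). Library siUpf1 1 was the highest of the knockdown libraries for both. For Oasl2 an NMD transcript is annotated, and counts per gene include it.

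The order of the members depends on transcript length, so levels were compared per kb of exon, using the union of each gene's annotated exons. In siCtl, Oasl1 was highest at 279 normalised reads per kb (mean of 2), followed by Oas1b at 243, Oasl2 at 140, Oas1c at 128 and Oas1a at 127. Oas1g at 42.0, Oas2 at 11.2 and Oas3 at 5.69 were lower, and Oasl1 was thus 49.1 times Oas3. Library ranges of neighbours in this order were apart except for Oas1c and Oas1a.

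In siUpf1 the order began with Oas1b at 123 and Oasl1 at 110, whose ranges overlapped. Oas1c and Oas1a (65.8 each) and Oasl2 (57.9) also overlapped. Below them Oas1g at 31.3, Oas2 at 3.92 and Oas3 at 0.363 remained apart. The share of Oas1g in the family's summed level per kb was 4.39% and 4.21% in siCtl and 7.55%, 5.55% and 7.25% in siUpf1. For Oasl1 the share was 29.1% and 28.1%, and 23.0%, 25.7% and 23.4%. When the longest transcript replaced the exon union, Oasl2 moved to 287 per kb in siCtl, second behind Oasl1 at 334, so its place rests on which of its exons are used.

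**Figure D2:**
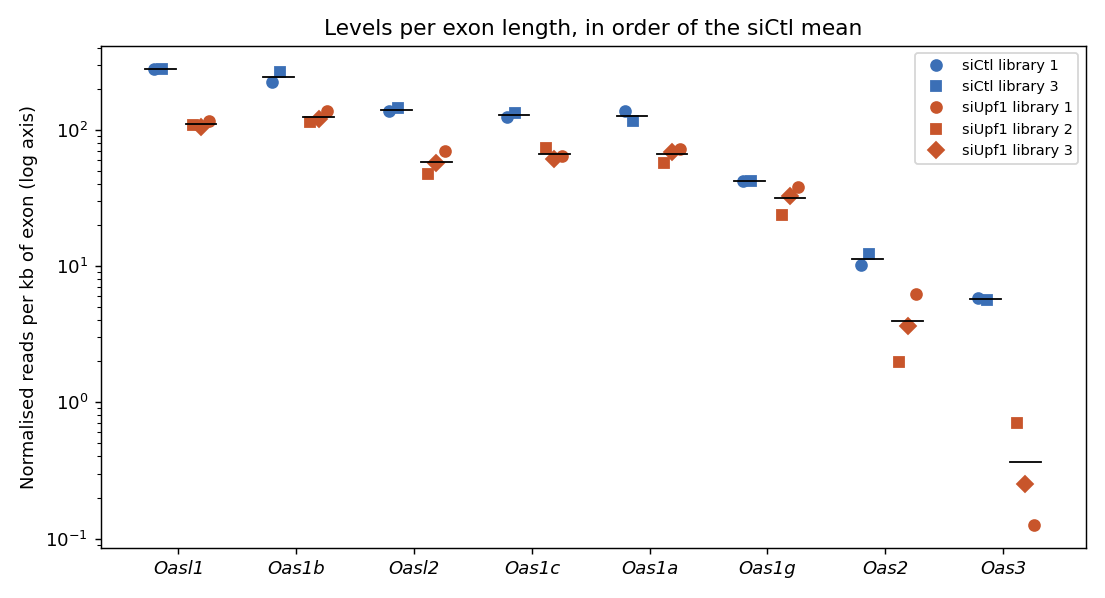
Normalised reads per kb of exon (y axis, log scale) for the 8 OAS genes, ordered by the siCtl mean, in each siCtl (blue) and siUpf1 (red) library, with a black line at each group's mean. Oasl1 and Oas1b lead in both groups, and Oas2 and Oas3 are lowest in both.

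The 4 remaining Oas1 paralogs were close to absent in both groups. Oas1e had 7 reads or fewer in every library, Oas1d and Oas1f had at most 3, and Oas1h had 0. None was tested. Of the 3 tested genes of the 2-5A pathway, 0 were lower and 2 higher (median log2 fold change 0.39). With 22.9% of all tested genes called lower and 22.0% higher, 3 genes are too few to read these counts against. Abce1, a ribosome recycling factor also known for a role in the 2-5A pathway, had 6188 and 6388 normalised counts in siCtl and 8589, 7921 and 8169 in siUpf1 (log2 fold change 0.39, SE 0.0477, DESeq2 adjusted p = 5.36e-15). Akap7, of a family with 2′-5′ phosphodiesterase activity, rose from 303 and 285 to 491, 459 and 401 (0.62, SE 0.133, adjusted p = 1.60e-05). Pde12, a 2′-phosphodiesterase that degrades 2-5A, had 812 and 842 against 869, 902 and 887 and was not called (0.10, SE 0.0852, adjusted p = 0.377).

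Sensors of foreign RNA and DNA were mostly lower alongside the OAS genes. Of 9 listed, 8 were tested, of which 6 were lower and 0 higher (median log2 fold change -0.63). Over all tested genes, 22.9% were lower and 22.0% higher. The RIG-I-like receptors fell by amounts near those of the OAS genes, with Ifih1 at -1.16 (SE 0.181), Ddx58 at -0.90 (SE 0.0882) and Dhx58 at -1.36 (SE 0.163). Tlr3, the endosomal receptor for double-stranded RNA, was at -1.08 (SE 0.227). The adaptor Mavs (-0.37) and the DNA sensor Cgas (-0.36) were called lower with smaller changes. Eif2ak2, the kinase PKR, and Adar, the editing enzyme ADAR1, bind double-stranded RNA as OAS proteins do and were not called (-0.13, SE 0.0841, and 0.03, SE 0.0504). Zbp1 had no adjusted p, with 11 and 21 reads in siCtl and 3, 0 and 0 in siUpf1.

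Genes of interferon signalling were divided. Of 12 listed, 11 were tested (median log2 fold change -0.39). Against rates of 22.9% lower and 22.0% higher over all tested genes, 7 were lower, 1 higher and 3 not called. Without siCtl library 3 the count lower was 3, and Ifnar1, the gene called higher (0.21), was not called when any 1 library was left out. Stat2, a subunit of a complex that binds ISREs, was at -0.69 (SE 0.0587), and its partner Irf9 at -0.27 (SE 0.0953). Irf1 (-0.74), Irf7 (-0.66), Irf3 (-0.39) and the feedback inhibitors Usp18 (-1.31) and Socs1 (-0.73) were lower. Ifnb1, which encodes interferon beta, had 0 reads in all 5 libraries.

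Other interferon-induced effectors showed a pattern near that of the OAS genes. Of 19 listed, 18 were tested (median log2 fold change -1.07). With 22.9% of all tested genes lower and 22.0% higher, 14 of the 18 were lower, 0 higher and 4 not called. Library siUpf1 1 was the highest siUpf1 library for 15 of these 18, as it was for 6 of the 8 OAS genes. Rsad2, the antiviral enzyme viperin, fell from 1649 and 1543 normalised counts to 272, 231 and 277 (-2.61, SE 0.1). Cmpk2, its neighbour in the genome, was at -0.62, and Mx2 at -1.16. Ifit2, by contrast, had 104 and 95.3 normalised counts in siCtl and 117, 90.4 and 90.9 in siUpf1, and Ifi27 was also not called (-0.12, SE 0.0551). The ISRE core was found in 8 of the 14 of these genes with a promoter window.

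**Figure D3:**
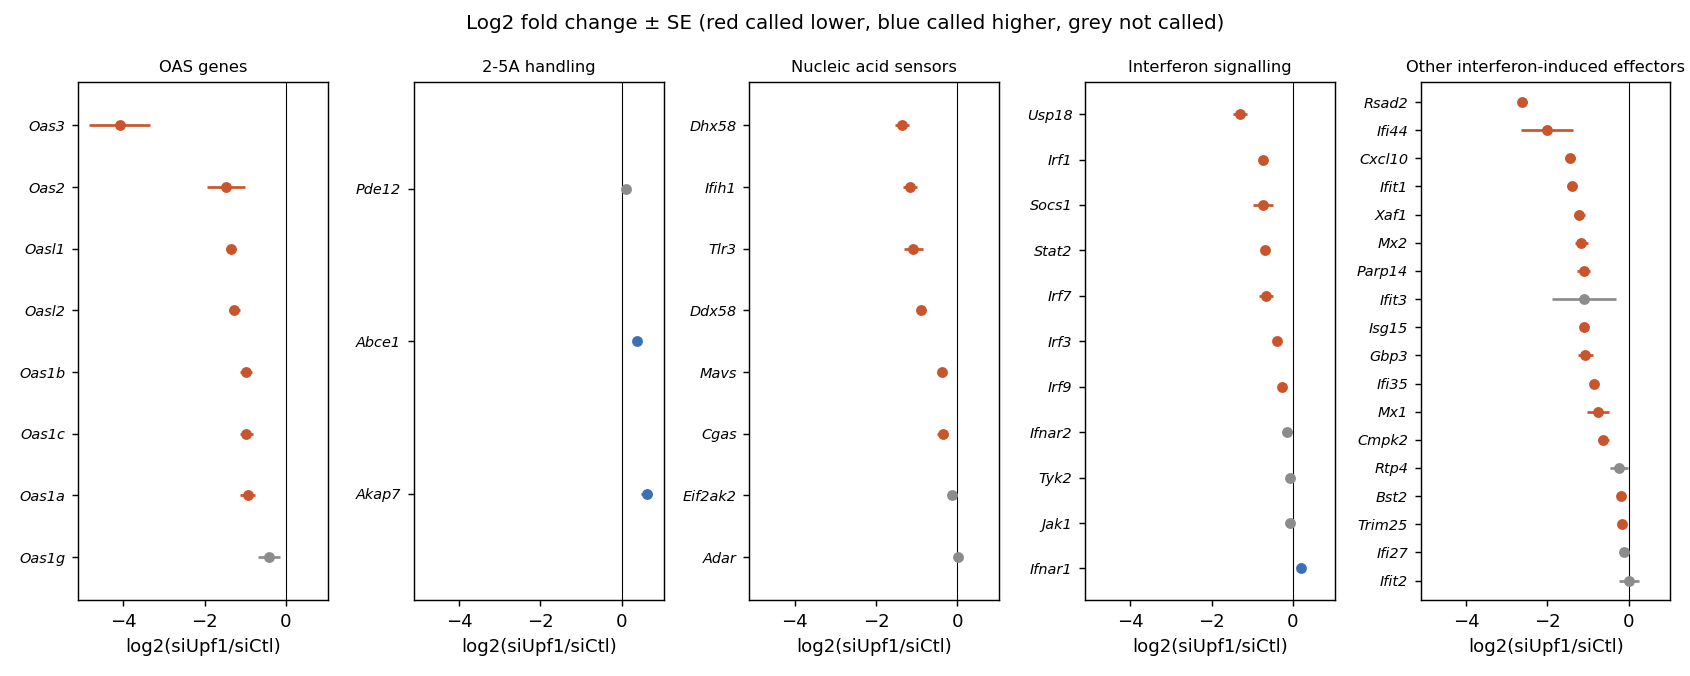
Log2 fold change of siUpf1 over siCtl (x axis) with its SE from DESeq2 for each tested gene of the OAS family and of 4 related lists. Red genes were called lower, blue higher and grey not called. Of the 8 OAS genes 7 are red and of the 3 2-5A handling genes 0, with 22.9% of all tested genes called lower.

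Genes around both OAS loci were compared with the family. Of the 3 nearest tested genes on each side of each locus, 12 in all, 0 were called lower and 3 higher. Over all tested genes, 22.9% were called lower and 22.0% higher, and the difference of these 12 genes from those rates was not tested. Every siUpf1 library lay below both siCtl libraries for Git2, 1500011B03Rik, 2210016L21Rik and Hnf1aos1, as for 35.2% of all tested genes. Every siUpf1 library lay above both for Ankrd13a, Sppl3, Dtx1, Rph3a and Ptpn11, and the share of all tested genes in that direction was not computed. Beside Oasl1 and Oasl2 the neighbours were 1500011B03Rik (-0.70, SE 0.319, adjusted p = 0.0596), Ankrd13a (1.15, SE 0.0691, called higher), Git2 (-0.07), 2210016L21Rik (-0.10), Hnf1aos1 (-0.19) and Sppl3 (0.19, called higher). Beside the larger cluster they were Dtx1 (0.16), Rasal1 (0.16), Ddx54 (-0.01), Rph3a (0.80, SE 0.722), Ptpn11 (0.56, called higher) and Gm42930 (0.39). The nearest, 2210016L21Rik, lies 4.24 kb from Oasl1 and had 93.6% of its siCtl level. Antisense genes in the loci carried few reads. Gm13822, which overlaps the start of Oasl1, had 2 to 5 reads per library, and Gm43068 and Gm43069 had 0.

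**Figure D4:**
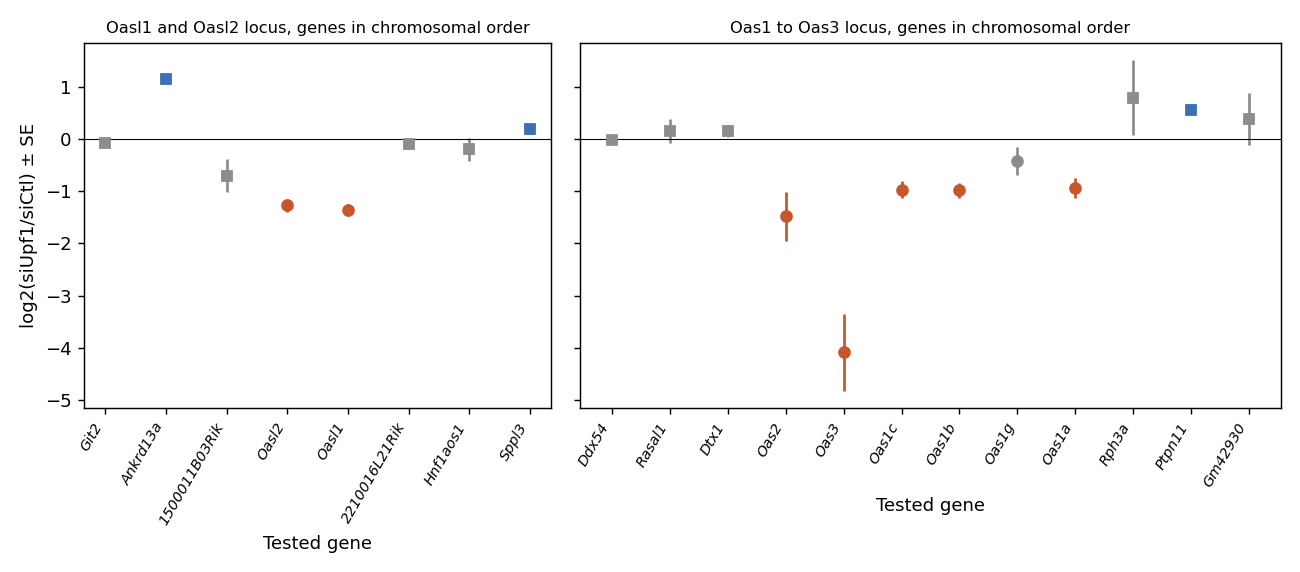
Log2 fold change of siUpf1 over siCtl with its SE (y axis) for tested genes in chromosomal order at both OAS loci, with OAS genes as circles and the 3 nearest tested genes on each side as squares. Red marks genes called lower, blue higher and grey not called: every red point is an OAS gene.

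Oasl2, the most read member, was used to find genes with a like profile over the 5 libraries. Likeness was the Euclidean distance between centred log2(normalised count + 1) profiles, among 10913 genes outside the lists that averaged 100 normalised counts or more. The 5 nearest were Togaram2 (distance 0.0690), Zfp37 (0.157), Uba7 (0.196), Prps2 (0.262) and Lztfl1 (0.265). All 5 were called lower, which follows from how they were picked, since the profile of Oasl2 includes its fall in siUpf1. Among the family Oasl1 was nearest to Oasl2 (0.358) and Oas3 farthest (3.09). The distance to Oasl1 was undercut by 13 of the candidate genes, so the profile of Oasl2 is shared with genes outside the family.

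The 3′ UTRs of the members were searched for the 7-base match to the seed of each strand of the Upf1 siRNA, a feature through which siRNAs can act on other mRNAs. For each gene the transcript with the longest coding sequence was used, and 3′ UTRs of other transcripts were not searched. The match to the antisense strand, which is meant to guide silencing, was in 0 of the 8 members and in 7.82% of 20135 annotated 3′ UTRs. The match to the sense strand was in 1 member, Oas1c, and in 9.11% of 3′ UTRs. With these shares over all 3′ UTRs, 8 members are too few to read the counts against. The control siRNA was not searched.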

How the data were processed

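Members and gene lists were chosen with earlier results of these data known. Raw counts per gene were deposited by the authors, who trimmed reads with fastp, mapped them to GRCm38.p6 with STAR (2.7.0f in the submitters' processing notes) and counted exonic reads on the reverse strand with featureCounts (Subread 1.6.4). Replicates were not pooled. Gene positions, exon unions and transcripts came from GENCODE M21 of the same build (99.8% of identifiers matched), and promoter windows from RefSeq (GRCm38.p6).

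The comparison was DESeq2's Wald test (1.42.0, R 4.3.3), with group as its single term (the study names DESeq2, but no test or model term), fitted on the whole table and all 5 libraries. Genes were called at a Benjamini-Hochberg adjusted p under 0.05, and independent filtering leaves low genes without an adjusted p. Fold changes are log2 of siUpf1 over siCtl. Normalised counts are counts divided by median-of-ratios size factors. Alternatives were edgeR (4.0.16, with a robust prior adopted after a test on simulated data), TMM and total-count scaling, a minimum of 10 counts in 2 libraries, no filter, shrinkage, a replicate block and omission of each library. Named genes were the members, Upf1, listed genes, the 3 nearest tested neighbours per side, and the 5 nearest profiles. Which listed genes to describe was decided after their values were seen. No columns were left without a sample. Some listed genes are not reported here.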

Additional observations from a re-analysis of the deposited data

How the results depend on the processing

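Between 5 and 7 members were called lower and 0 higher under every alternative (edgeR with and without its robust prior, the latter added after seeing the data, TMM or total-count scaling, a minimum count, no filter, the replicate block and each library left out). All members that received an adjusted p were called lower, except Oas1g. The log2 fold change of no member changed sign. Shrinkage moved Oas3 to -1.14 and Oas2 to -0.67, so that Oas3 no longer had the largest fold change. Libraries of the same number shared little deviation from their group means (correlation -0.0832 for number 1 and -0.0745 for number 3, over 11916 genes). With 2 siCtl libraries their deviations mirror each other, so these values are not independent and cannot decide whether libraries were paired. Library siUpf1 2 has no siCtl partner. With the replicate block, 1957 genes were higher and 1962 lower, 5 of 6 members with an adjusted p were lower, Oas3 was at -4.93 without one, and the interferon signalling list had 4 lower and 0 higher. With 1 library left out, that list had 3 to 7 lower and 0 higher. The summed log2 ratio of the family, -1.16, was between -1.24 and -1.09 with a library left out. With longest-transcript lengths, 5 of 8 members kept their place in the siUpf1 order. With 2 against 3 libraries no exact test of a single value can pass 0.05, and genes under about 10 reads could not be assessed.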
